A study of Rattus norvegicus with 111 samples.

Results

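Lipoprotein lipase (Lpl, ENSRNOG00000012181) was followed in maternal and fetal rat liver across every dose of 2 perfluoroalkyl ether carboxylic acids. It was chosen together with Angptl4 (ENSRNOG00000007545) as a pair of genes of triglyceride clearance, by their Ensembl identifiers. Angptl4 is not analysed here, so 1 of the 2 genes is described, out of 20311 genes in each count table. The symbol Lpl comes with the choice of the pair, since 0 of the 20311 identifiers matched a symbol in the reference table used here.

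Lipoprotein lipase is an enzyme held on the surface of capillary endothelium, where it splits the triglycerides of chylomicrons and very low density lipoproteins and so releases fatty acids to the tissue. Adipose tissue, heart and skeletal muscle are its main sites in the adult. Adult liver makes little of it, whereas the liver of the fetal and newborn rodent is known to express it. ANGPTL4 is a secreted protein that inactivates the lipase. Both genes are known targets of the PPAR family of fatty acid-activated nuclear receptors, through which many perfluoroalkyl acids act on rodent liver.

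Pregnant Sprague-Dawley rats received either chemical by mouth from gestational day 18 to 22, and RNA of maternal and of fetal liver was assayed by TempO-Seq, a targeted probe assay. The chain of PFO5DoA is that of PFO4DA lengthened by a difluoromethoxy unit. Controls (0 mg/kg/d) belonged to each chemical, and 0.5% Tween-80 is the vehicle that the labels name for the study. The PFO5DoA doses were 0.1 mg/kg/d (2 dams), 0.3 and 1 mg/kg/d (3 dams at either dose) and 3, 10 and 30 mg/kg/d (4 dams per dose), with 5 control dams used. The PFO4DA doses were 0.3, 1, 3, 10, 30 and 62.5 mg/kg/d (4 dams per dose), with 6 control dams. The number of fetuses behind a fetal sample is not given in the labels. The labels report that dams at 30 mg/kg/d PFO5DoA weighed less than controls by the last day, with apparent toxicity to the fetuses of 1 dam. The dam was the replicate throughout.

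The column names of the tables carry the dam but not the life stage. Of the 2 libraries of a dam, the one more alike over all genes to the single library of dam 2286, which is labelled maternal, was taken as maternal and the other as fetal. Dam 2286 was dosed at 30 mg/kg/d PFO5DoA, and its library is also part of the maternal group at that dose. The correlation (Pearson's r of log2(CPM + 1)) was 0.943 to 0.988 for libraries taken as maternal and 0.861 to 0.923 for those taken as fetal. Without the Lpl row the assignment was the same in 56 of 56 dams, which include dam 2286 with its single library. With r apart by 0.0524 or more in each dam used with 2 libraries, 1 row of 20311 could hardly change it. Dam 2279, a PFO5DoA control whose fetal library held 45504 counts, was not used. This left 55 maternal and 54 fetal libraries of 111, with 7133025 to 15254954 counts each. The fetal group at 30 mg/kg/d PFO5DoA therefore holds 3 dams and the maternal group 4. The library of dam 2288, at 30 mg/kg/d PFO5DoA, was the least like the others in each life stage, with a median r of 0.956 to the other maternal and 0.963 to the other fetal libraries. Defining markers of liver could not be looked up without symbols, so the tissue label was not tested.

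Lpl was far more abundant in fetal than in maternal liver. Levels are TMM-scaled CPM, counts relative to library size, scaled over all libraries of a life stage. Fetal libraries held 192 to 759 CPM with a median of 450.0, from 2269 to 9583 Lpl counts, and maternal libraries held 6.84 to 44.7 CPM with a median of 16.0, from 61 to 506 counts. No maternal library reached the lowest fetal one. With both life stages scaled together, the fetal level was 10.1 to 58.0 times the maternal level of the same dam, with a median of 19.3 over 54 dams. In the 11 control dams the means on that joint scale were 336 CPM in fetal and 18.1 CPM in maternal liver. A higher ratio of fetal to maternal mean was found for 280 of 7798 genes (3.59%) with at least 5 CPM in either liver. The life stage was set from the values of all genes, so these levels are a description with no test. In bulk tissue a change in the share of a cell type and a change in RNA per cell cannot be told apart, here or in any comparison by dose.

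**Figure D1:**
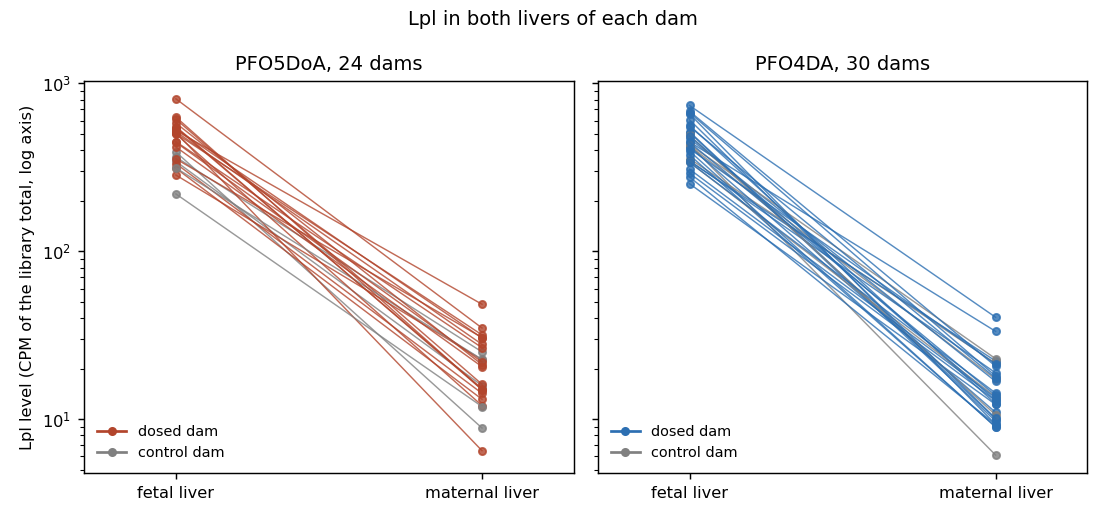
Lpl level in the fetal and the maternal library of each dam, as CPM of the library total on a log axis, with 1 line per dam (24 dams of PFO5DoA, 30 of PFO4DA; grey for controls). The fetal point lies above the maternal one in every dam, and the 2 ranges do not overlap.

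Counting error was not the main source of spread in fetal liver. At the median fetal count of 4393 a Poisson error is 1.51% of the value, and at the median maternal count of 163 it is 7.83%. Those errors cover counting alone. In fetal liver the SD over control dams was 88.2 CPM around a mean of 328 CPM for PFO5DoA and 64.6 CPM around 418 CPM for PFO4DA. In maternal liver it was 5.97 CPM around 16.9 CPM and 5.89 CPM around 15.2 CPM, a larger part of the mean.

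In fetal liver, Lpl rose under PFO5DoA at 1 and 3 mg/kg/d, and was nearer the controls at 10 and 30 mg/kg/d when all control dams were pooled. Relative to controls of the same run of dams (runs are described below), it was 1.60-fold at 1 and 1.67-fold at 30 mg/kg/d. The 5 control livers held 426, 325, 380.0, 192 and 315 CPM. At 0.1 mg/kg/d the 2 livers held 339 and 369 CPM. At 0.3 mg/kg/d the 3 livers held 367, 531 and 405 CPM. Up to this dose the livers overlapped the controls, with 1 liver at 0.3 mg/kg/d above the highest control.

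At 1 mg/kg/d the 3 fetal livers held 582, 613 and 617 CPM. At 3 mg/kg/d the 4 livers held 615, 669, 583 and 525 CPM. All 7 of these lay above the highest control, and the 3 livers at 1 mg/kg/d lay close together. At 10 mg/kg/d the levels were 463, 759, 472 and 304 CPM, the widest spread of any fetal group (SD 189 CPM). At 30 mg/kg/d the 3 livers held 422, 491 and 359 CPM. Groups at 10 and 30 mg/kg/d overlapped the controls, with 3 of 4 and 1 of 3 livers above the highest control.

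Mean fetal Lpl was 604 ± 19.3 CPM at 1 mg/kg/d (SD, n = 3) and 598 ± 60.5 CPM at 3 mg/kg/d (n = 4), against 328 ± 88.2 CPM in controls (n = 5). In the fit over all doses (edgeR's quasi-likelihood test, Benjamini-Hochberg adjustment over 11509 genes, called at an adjusted p under 0.05), the log2 fold change was 0.87 at 1 mg/kg/d (SE 0.23, adjusted p = 0.0495) and 0.86 at 3 mg/kg/d (SE 0.22, adjusted p = 0.0160). Both were called. It was 0.41 at 0.3 mg/kg/d (SE 0.23, adjusted p = 1.0), 0.59 at 10 mg/kg/d (SE 0.22, adjusted p = 0.0716) and 0.34 at 30 mg/kg/d (SE 0.23, adjusted p = 0.300), none of them called. The 95% interval at 30 mg/kg/d ran from -0.15 to 0.82, with its upper bound close to the estimate at 3 mg/kg/d. The slope on log2(dose + 1) was 0.05 per unit (SE 0.056, adjusted p = 0.552) and was not called.

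Over all genes, the number called increased with each dose. Of 11509 genes tested in fetal liver, 0.113% were called at 0.3 mg/kg/d PFO5DoA, 2.4% at 1, 7.08% at 3, 14.7% at 10 and 29.9% at 30 mg/kg/d, and 36.0% for the slope. In this fit Lpl was called at doses where few genes were, and not at the dose with the most calls. With the dam run as a covariate (described with the runs) that order did not hold: the call at 1 mg/kg/d was lost (adjusted p = 0.0825), and 10 and 30 mg/kg/d were called (adjusted p = 0.0177 and 0.0283). Of the 231 genes called at both 1 and 3 mg/kg/d, 68 (29.4%) were not called at 30 mg/kg/d, and 19 (8.23%) were called neither at 10 nor at 30 mg/kg/d. Lpl is among those 19 in the fit without the run. A larger log2 fold change than that of Lpl was estimated for 3.53% of genes at 1 mg/kg/d, 4.21% at 3, 9.62% at 10 and 26.2% at 30 mg/kg/d.

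The call at 1 mg/kg/d stood close to its threshold. It was lost when any 1 of 6 dams was left out (controls 2265, 2278 and 2280, and dams 2271, 2272 and 2273 of that dose; adjusted p 0.0684 to 0.185), with log2 fold changes of 0.73 to 0.92. The call at 3 mg/kg/d was lost only without dam 2275 of that dose (log2 fold change 0.79, adjusted p = 0.0565). The value at 10 mg/kg/d passed the threshold without control dam 2263 (0.71, adjusted p = 0.0423) or without dam 2284 of that dose (0.78, adjusted p = 0.0146).

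Dam identifiers of each chemical form 2 runs that both start with control dams. The labels do not call them a batch. Fetal control Lpl averaged 377 CPM in the 3 dams of the first PFO5DoA run and 253 CPM in the 2 of the second. The doses of 0.3 and 1 mg/kg/d lie in the first run only and 30 mg/kg/d in the second only. Relative to the controls of the same run, mean fetal Lpl was 1.15-fold at 0.3, 1.60-fold at 1, 1.70-fold at 3 and 1.62-fold at 10 mg/kg/d in the first run. In the second run it was 2.19-fold at 3, 1.53-fold at 10 and 1.67-fold at 30 mg/kg/d. Within a run every dose from 1 mg/kg/d upwards was at least 1.53-fold its controls. The second-run controls were dams 2278 and 2280, at 192 and 315 CPM, and 192 CPM was the lowest fetal level of all. Without dam 2278, in the fit without the run, the log2 fold change was 0.45 at 10 and 0.20 at 30 mg/kg/d.

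With the run as a covariate, the log2 fold change in fetal liver was 0.70 at 1 mg/kg/d (adjusted p = 0.0825), 0.93 at 3 (adjusted p = 0.00163), 0.63 at 10 (adjusted p = 0.0177) and 0.65 at 30 mg/kg/d (SE 0.22, adjusted p = 0.0283). The call at 1 mg/kg/d was lost, and those at 10 and 30 mg/kg/d were gained. Each run fitted alone gave 0.67 at 1 mg/kg/d (adjusted p = 0.0794), 0.75 at 3 (adjusted p = 0.0363) and 0.67 at 10 mg/kg/d (adjusted p = 0.039) in the first, and 1.12 at 3 (adjusted p = 0.134), 0.62 at 10 (adjusted p = 0.329) and 0.73 at 30 mg/kg/d (adjusted p = 0.103) in the second. All of these values were positive.

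**Figure D2:**
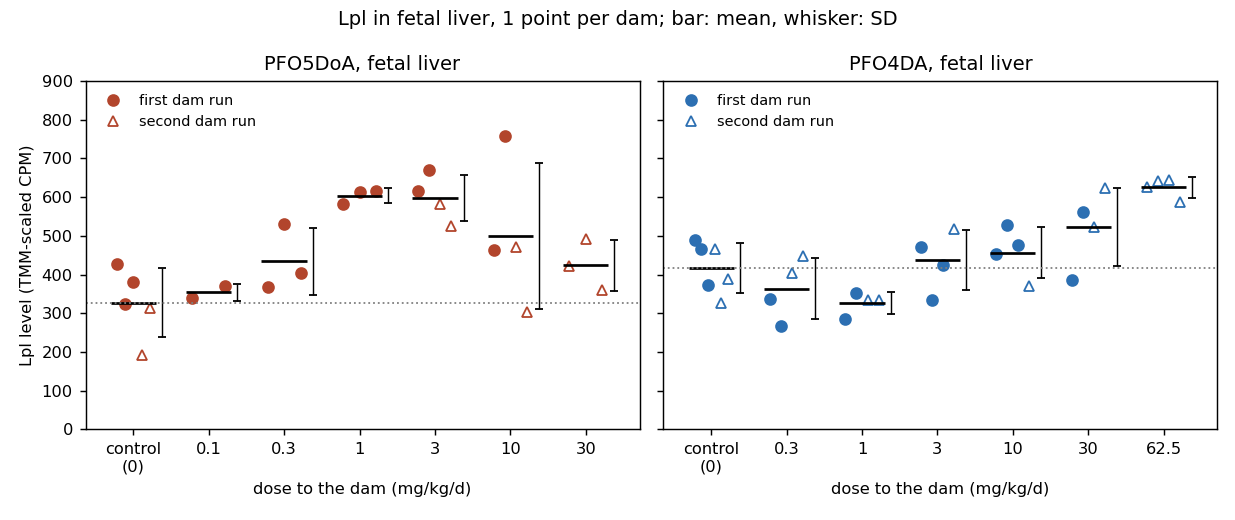
Lpl level (TMM-scaled CPM) in each fetal liver by dose to the dam, PFO5DoA left and PFO4DA right, with the mean (bar), SD (whisker), control mean (dotted line) and the 2 dam runs as filled circles and open triangles. Under PFO5DoA the livers at 1 and 3 mg/kg/d lie at 525 to 669 CPM, above all controls, and under PFO4DA the 4 livers at 62.5 mg/kg/d lie at 587 to 646 CPM, above all controls.

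Under PFO4DA, fetal Lpl rose along the dose and was called at 62.5 mg/kg/d alone among the doses. The 6 control livers ran from 327 to 489 CPM with a median of 426 CPM. At 0.3 mg/kg/d the levels were 337, 268, 403 and 447 CPM, and at 1 mg/kg/d they were 286, 352, 335 and 334 CPM. No liver of either group exceeded the highest control, and the group at 1 mg/kg/d had the lowest mean of the 14 fetal groups, 327 CPM.

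At 3 mg/kg/d the 4 fetal livers held 472, 335, 425 and 518 CPM. At 10 mg/kg/d they held 453, 527, 475 and 369 CPM. At 30 mg/kg/d they held 385, 560.4, 522 and 622 CPM. The number of livers above the highest control was 1, 1 and 3 of 4 at these doses. At 62.5 mg/kg/d the levels were 627, 641, 646 and 587 CPM, all above the highest control and the tightest of the PFO4DA groups (SD 26.8 CPM).

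Mean fetal Lpl was 625 ± 26.8 CPM at 62.5 mg/kg/d (SD, n = 4), against 418 ± 64.6 CPM in controls (n = 6), a log2 fold change of 0.56 (SE 0.15, adjusted p = 0.0117, edgeR). The slope on log2(dose + 1) was 0.10 per unit (SE 0.021, adjusted p = 0.000266), so Lpl was called by the trend as well. The other log2 fold changes were -0.20 at 0.3, -0.36 at 1, 0.06 at 3, 0.11 at 10 and 0.29 at 30 mg/kg/d, each with an SE of 0.15 and none called. The lowest, at 1 mg/kg/d, had an unadjusted p of 0.0261 and an adjusted p of 0.584.

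Of 11172 genes tested in fetal liver under PFO4DA, 0% were called at 0.3 and at 1 mg/kg/d, 0.304% at 3, 2.64% at 10, 6.44% at 30 and 10.6% at 62.5 mg/kg/d, and 18.9% for the slope. Lpl followed the calls over all genes here, in that it was called at the dose with the most of them. A larger log2 fold change was estimated for 804 genes (7.2%) at 62.5 mg/kg/d, and a larger slope for 607 (5.43%). Leaving out any single dam kept both calls, with a log2 fold change of 0.51 to 0.61 at 62.5 mg/kg/d and a slope of 0.10 to 0.12.

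All 4 dams at 62.5 mg/kg/d belong to the second PFO4DA run, where mean fetal Lpl was 1.59-fold that of the 3 controls of the run. At 30 mg/kg/d it was 1.07-fold in the first run and 1.46-fold in the second, with 2 dams in each. At 1 mg/kg/d it was 0.720-fold and 0.851-fold. The direction was the same in both runs at those 2 doses. At 0.3 mg/kg/d it was 0.683-fold in the first and 1.08-fold in the second. The runs differed in direction there, and also at 3 mg/kg/d (0.927-fold and 1.32-fold) and 10 mg/kg/d (1.10-fold and 0.939-fold), where the second run holds 1 dam each.

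In maternal liver, no dose of either chemical was called for Lpl, and the estimates were less precise than in fetal liver. Under PFO5DoA the 5 control livers held 22.4, 15.6, 11.2, 11.5 and 23.9 CPM, and the 2 livers at 0.1 mg/kg/d held 14.8 and 24.9 CPM. The livers at 0.3 mg/kg/d held 16.1, 12.9 and 29.5 CPM, and those at 1 mg/kg/d held 8.22, 15.6 and 26.0 CPM. These groups lay across the control range.

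At 3 mg/kg/d PFO5DoA the 4 maternal livers held 44.7, 18.9, 17.9 and 22.0 CPM. At 10 mg/kg/d they held 28.6, 35.1, 18.6 and 17.8 CPM. At 30 mg/kg/d they held 30.2, 14.4, 13.7 and 19.5 CPM. The highest maternal level of all was that of dam 2274 at 3 mg/kg/d, and the other 3 livers of its group lay within the control range. At 10 mg/kg/d, 2 of 4 livers exceeded the highest control.

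Log2 fold changes in maternal liver under PFO5DoA were 0.19 at 0.3, -0.05 at 1, 0.61 at 3, 0.56 at 10 and 0.19 at 30 mg/kg/d, with SEs of 0.36 to 0.40 and adjusted p of 0.318 to 0.983 (edgeR). The slope was 0.07 per unit (SE 0.066, adjusted p = 0.429). Of 10615 genes tested, 0% were called at 0.3 mg/kg/d, 0.452% at 1, 2.65% at 3, 14.0% at 10 and 39.8% at 30 mg/kg/d, and 42.2% for the slope. The interval at 3 mg/kg/d ran from -0.14 to 1.37 and includes the fetal estimate at that dose. Without dam 2274 the estimate at 3 mg/kg/d was 0.22 (adjusted p = 0.788).

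The first run held the higher maternal levels at 3 and 10 mg/kg/d PFO5DoA. Relative to the controls of the same run, maternal Lpl was 1.94-fold at 3 and 1.94-fold at 10 mg/kg/d in the first run, and 1.13-fold and 1.03-fold in the second, with 2 dams in each. It was 1.10-fold at 30 mg/kg/d, which lies in the second run only. With each run fitted alone, the log2 fold change was 0.94 at 3 and 0.94 at 10 mg/kg/d in the first run (adjusted p = 0.469 and 0.294), and 0.18 and 0.04 in the second (adjusted p = 0.971 and 0.978). No maternal value was called in these fits or with the run as a covariate.

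Maternal Lpl under PFO4DA ran from 6.84 to 21.9 CPM in the 6 controls, with a median of 15.9 CPM. The 4 livers held 13.9, 11.4, 9.14 and 14.0 CPM at 0.3 mg/kg/d, and 8.78, 23.9, 14.9 and 14.0 CPM at 1 mg/kg/d. The group at 3 mg/kg/d held 10.8, 18.2, 16.0 and 12.7 CPM. In these groups 1 liver in all, at 1 mg/kg/d, exceeded the highest control.

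At the 3 highest doses the maternal groups again lay across the controls. The livers held 28.3, 11.3, 10.5 and 23.1 CPM at 10 mg/kg/d, and 9.24, 13.0, 19.5 and 9.03 CPM at 30 mg/kg/d. The top dose, 62.5 mg/kg/d, gave 16.9, 8.78, 35.8 and 20.1 CPM. The 62.5 mg/kg/d group thus held a liver near the lowest control beside the highest liver of any PFO4DA group.

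Log2 fold changes in maternal liver under PFO4DA were -0.33 at 0.3, 0.02 at 1, -0.05 at 3, 0.29 at 10, -0.25 at 30 and 0.43 at 62.5 mg/kg/d, with SEs of 0.35 to 0.36 and adjusted p of 0.637 to 1.0 (edgeR). The slope was 0.06 per unit (SE 0.045, adjusted p = 0.712). None was called. Of 10263 genes tested, 0% were called at 0.3, 1 and 3 mg/kg/d, 0.00974% at 10, 0.633% at 30 and 2.46% at 62.5 mg/kg/d, and 2.8% for the slope. At 62.5 mg/kg/d the interval ran from -0.29 to 1.16 and includes the fetal estimate of 0.56.

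**Figure D3:**
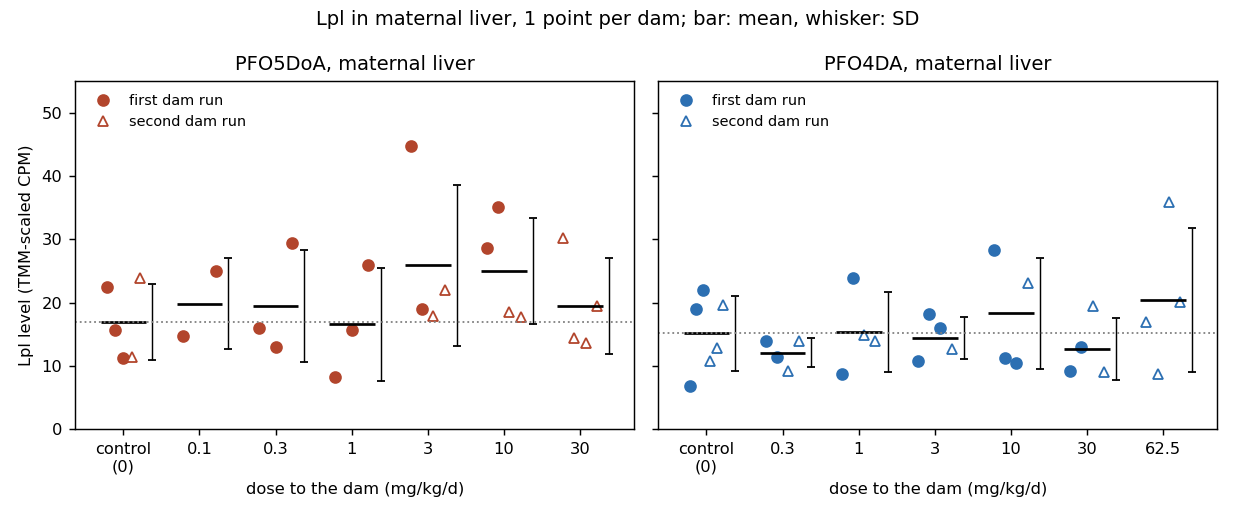
Lpl level (TMM-scaled CPM) in each maternal liver by dose to the dam, with mean, SD, control mean and dam runs marked as for fetal liver. The groups overlap their controls at every dose, and the highest liver (44.7 CPM) is that of dam 2274 at 3 mg/kg/d PFO5DoA.

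**Figure D4:**
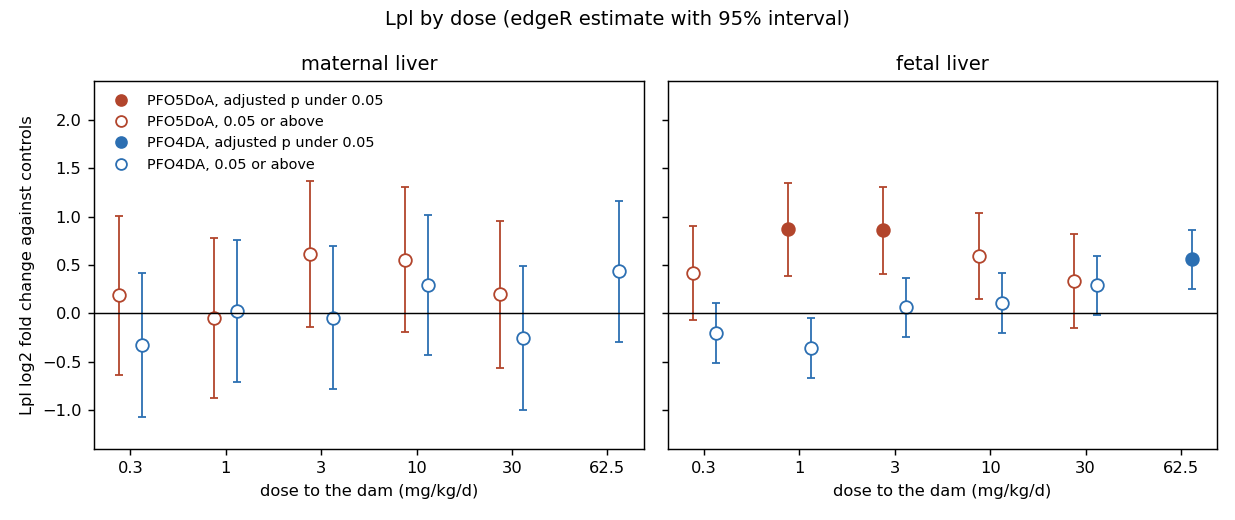
Log2 fold change of Lpl against the controls of its chemical, with 95% intervals from the edgeR fit, in maternal liver (left) and fetal liver (right). Filled points are called at an adjusted p under 0.05, and these are fetal liver at 1 and 3 mg/kg/d PFO5DoA (0.87 and 0.86) and at 62.5 mg/kg/d PFO4DA (0.56).

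Whether the maternal and the fetal change differed was tested in a fit with the dam as a block, which sets the 2 livers of a dam side by side. The maternal minus the fetal log2 fold change under PFO5DoA was -0.28 at 0.3, -1.03 at 1, -0.34 at 3, 0.01 at 10 and -0.03 at 30 mg/kg/d. The largest, at 1 mg/kg/d, had a 95% interval of -1.87 to -0.19, an unadjusted p of 0.0180 and an adjusted p of 0.266 (edgeR). Without the filter on low counts it was -1.06 with an adjusted p of 0.0422, so this call depends on the filter. Under PFO4DA the difference was -0.02 at 0.3, 0.40 at 1, -0.04 at 3, 0.16 at 10, -0.50 at 30 and -0.20 at 62.5 mg/kg/d, with adjusted p of 0.777 to 1.0. At 30 mg/kg/d PFO5DoA the interval was -0.87 to 0.80, and a difference of the size of the fetal changes cannot be told from none. The fit held no term for a dam run that acts differently on the 2 livers. In separate fits with the run as a covariate, the change at 30 mg/kg/d PFO5DoA was 0.42 in maternal and 0.65 in fetal liver. In the second run alone it was 0.12 and 0.73. The value of -0.03 therefore depends on pooling the controls of both runs.

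Few genes differed between life stages in this test at low dose. Under PFO5DoA 0% of 11968 genes were called at 0.3 mg/kg/d, 0.117% at 1, 1.19% at 3, 4.77% at 10 and 15.1% at 30 mg/kg/d. Under PFO4DA 0% of 11610 genes were called at 0.3 and at 1 mg/kg/d, 0.00861% at 3, 0.5% at 10, 1.02% at 30 and 2.81% at 62.5 mg/kg/d.

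The chemicals were compared at the 5 doses they share, as the log2 fold change under PFO5DoA minus that under PFO4DA, each against its own controls. In fetal liver the difference at 1 mg/kg/d was 1.22 (95% interval 0.68 to 1.77, adjusted p = 0.0130, edgeR) and was called. Fetal livers there held 582 to 617 CPM under PFO5DoA and 286 to 352 CPM under PFO4DA, with control means of 328 CPM and 418 CPM. The changes behind it are the called 0.87 under PFO5DoA and the uncalled -0.36 under PFO4DA, so both chemicals enter the difference. This difference was not fitted with the dam run as a covariate. With that covariate the change under PFO5DoA alone was 0.70 and not called (adjusted p = 0.0825, edgeR). The call was lost without dam 2273, a dam at 1 mg/kg/d PFO5DoA (1.21, adjusted p = 0.0569), and held without any of the other 17 dams of that dose or of the controls.

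At the other shared doses the difference in fetal liver was 0.64 at 0.3 mg/kg/d (0.09 to 1.18, adjusted p = 0.857), 0.80 at 3 (0.28 to 1.33, adjusted p = 0.124), 0.48 at 10 (-0.04 to 1.00, adjusted p = 0.355) and 0.04 at 30 mg/kg/d (-0.51 to 0.58, adjusted p = 0.952). None of these was called. At 30 mg/kg/d a difference beyond 0.58 in either direction lies outside the interval of this fit. The fit pools the controls of both dam runs, and no difference between the chemicals was fitted with the run as a covariate. With that covariate in separate fits, the fetal change at 30 mg/kg/d was 0.65 under PFO5DoA and 0.28 under PFO4DA. The interval therefore does not bound a difference adjusted for the run. Of 11732 genes tested in fetal liver, 0.00852% were called at 0.3 mg/kg/d, 0.707% at 1, 1.56% at 3, 4.07% at 10 and 13.6% at 30 mg/kg/d. Lpl was therefore called at a dose where few genes differed between the chemicals.

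In maternal liver the difference between the chemicals was 0.52 at 0.3, -0.07 at 1, 0.67 at 3, 0.28 at 10 and 0.45 at 30 mg/kg/d (interval at 30 mg/kg/d -0.62 to 1.53), with adjusted p of 0.593 to 0.987. None was called. Of 10951 genes tested, 0% were called at 0.3 mg/kg/d, 0.128% at 1, 0.804% at 3, 8.55% at 10 and 20.0% at 30 mg/kg/d. The tables come one per chemical, so a difference between them that acts alike on controls and dosed livers cancels in these values. A difference between the dam runs of a chemical need not cancel.

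**Figure D5:**
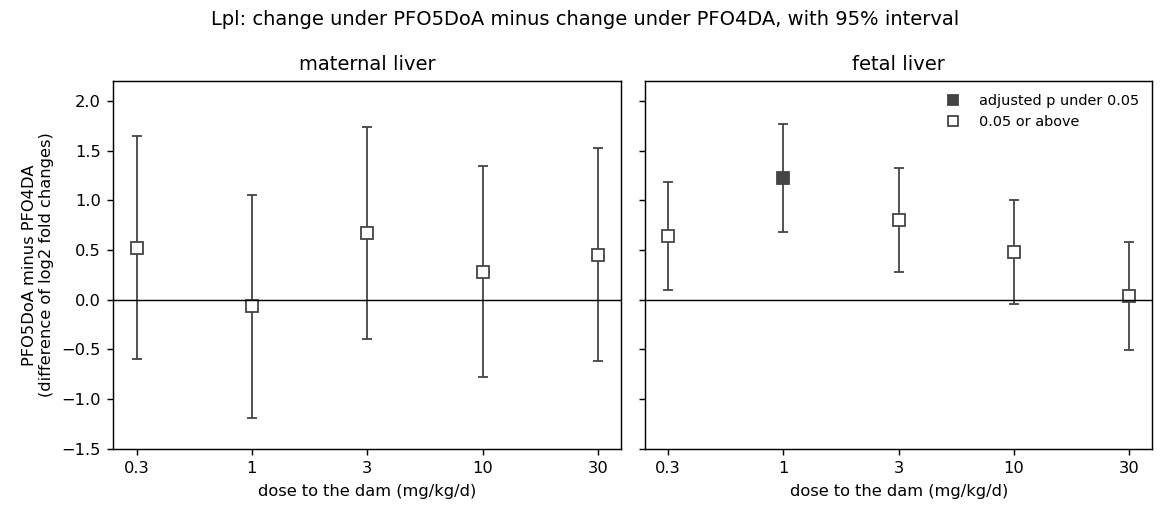
Log2 fold change of Lpl under PFO5DoA minus that under PFO4DA at the 5 shared doses, with 95% intervals, in maternal liver (left) and fetal liver (right). The filled point, at 1 mg/kg/d in fetal liver (1.22), is the only 1 called at an adjusted p under 0.05.

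Ranked by mean level, the fetal groups ran from 327 CPM at 1 mg/kg/d PFO4DA to 625 CPM at 62.5 mg/kg/d PFO4DA. The 3 highest were 62.5 mg/kg/d PFO4DA, 1 mg/kg/d PFO5DoA (604 CPM) and 3 mg/kg/d PFO5DoA (598 CPM), which overlap each other. This order is of levels and not of changes from controls. Relative to all controls of its chemical, the mean was 1.495-fold at 62.5 mg/kg/d PFO4DA. It was 1.844-fold at 1 and 1.826-fold at 3 mg/kg/d PFO5DoA. Relative to controls of the same run, it was 1.59-fold at 62.5 mg/kg/d PFO4DA and 1.60-fold at 1 mg/kg/d PFO5DoA. Counted from the lowest of the 14 means, the fetal controls of PFO5DoA stood at place 2 and those of PFO4DA at place 5, and their ranges overlap (192 to 426 CPM against 327 to 489 CPM). Maternal groups ran from 12.1 CPM at 0.3 mg/kg/d PFO4DA to 25.9 CPM at 3 mg/kg/d PFO5DoA. Neighbouring groups in either order overlapped in range.

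Within dose groups, no relation between the Lpl levels of the 2 livers of a dam was detected. Over 54 dams, deviations of log2(CPM + 1) from the group mean gave a Pearson's r of 0.055 (permutation p = 0.696) and a Spearman's rho of -0.059 (p = 0.695) between maternal and fetal liver. It was 0.27 in the 24 dams of PFO5DoA (permutation p = 0.222) and -0.17 in the 30 of PFO4DA (permutation p = 0.337). Without the 2 dams farthest from the maternal median r was 0.058. None of these p-values was adjusted for the number of correlations computed.

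Genes whose group means moved most like Lpl were ranked over the 12 dosed groups, as the difference of mean log2(CPM + 1) from the controls of the chemical. In fetal liver the closest of 11101 genes were ENSRNOG00000001516 (r = 0.952) and ENSRNOG00000000923 (r = 0.948). ENSRNOG00000001516 had differences of 1.89 at 1 mg/kg/d, 1.77 at 3, 1.26 at 10 and 0.61 at 30 mg/kg/d PFO5DoA, and 1.42 at 62.5 mg/kg/d PFO4DA. Lpl had 0.93, 0.91, 0.58 and 0.41 at the same doses of PFO5DoA and 0.59 at 62.5 mg/kg/d PFO4DA. In these means both were highest at 1 mg/kg/d under PFO5DoA, close to 3 mg/kg/d, and at the top dose under PFO4DA. The means are not adjusted for the dam run. With the run as a covariate, the log2 fold change of Lpl was 0.70 at 1 and 0.93 at 3 mg/kg/d PFO5DoA. In maternal liver the 5 closest of 10153 genes had an r of 0.853 to 0.873. The groups share controls and the genes were picked for likeness, so these are descriptions.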

How the data were processed

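For each chemical the authors deposited a table of estimated counts per gene and library without normalization. Partek, STAR 2.7.8a, DESeq2 and the genome build mRatBN7.2 appear in the submitters' processing notes, with no step assigned to any of them. The deposited estimated counts have decimals in 12.2% (PFO5DoA) and 11.8% (PFO4DA) of values and were rounded to whole numbers. How overlapping or similar genes were counted is not given in the sources used here.

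Groups came from the labels through the dam identifier, and the life stage of a column from its likeness over all genes to the library of dam 2286. Dose groups, slopes and differences between chemicals and life stages were tested with edgeR 4.0.16 in R 4.3.3 (TMM, filterByExpr, estimateDisp, robust glmQLFit and glmQLFTest), adjusted over all genes tested. Dams at 0.1 mg/kg/d were left out of the main edgeR fits, since the labels' protocols state that this group was excluded. They are part of the same-dam correlation and of the dosed groups ranked for likeness to Lpl. Intervals are 95%. Correlations used 100000 two-sided permutations within dose groups. The tests of dose groups (edgeR and DESeq2) and of differences between chemicals and between life stages (edgeR) were also tried on simulated data. The slope, the life stage assignment, the covariates, the correlations and the ranking for likeness to Lpl were not.

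Lpl, Angptl4 and 14 gene lists of lipid handling and cell types were chosen with earlier results of these data known, and the lists could not be looked up without symbols. The genes named beside Lpl are those closest to it by correlation over dosed groups. Other settings were DESeq2 1.42.0, RLE scaling, no filter, the dam run or the replicate number as a covariate, each dose alone, the 0.1 mg/kg/d dams kept, no life stage and each dam left out. Angptl4 is not analysed here.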

Additional observations from a re-analysis of the deposited data

Results flagged for a closer look

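In maternal liver at 3 mg/kg/d PFO5DoA, dam 2274 held 44.7 CPM of Lpl, and the gap to the nearest of the other 3 livers (17.9, 18.9 and 22.0 CPM) was a larger part of the group's range than Dixon's 95% critical value. Of 21 groups examined this was the only 1 so marked, and chance alone marks about 1 in 20 groups. The fetal library of the same dam held 615 CPM, within the range of its group.

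The change of fetal Lpl at 1 mg/kg/d differed between the chemicals by 1.22 on the log2 scale (PFO5DoA minus PFO4DA, SE 0.27, adjusted p = 0.0130, edgeR), with 3 of 3 PFO5DoA livers above and 4 of 4 PFO4DA livers below the mean of their own controls. The dam run was not a covariate in that fit.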

How the results depend on the processing

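In fetal liver, the calls at 3 mg/kg/d PFO5DoA and of the slope on PFO4DA dose held under every setting run over all dams of both runs. The call at 1 mg/kg/d PFO5DoA was lost with each dose fitted alone (0.88), with the dam run as a covariate (0.70), in the first run alone (0.67) and with both livers of a dam summed (0.86). That sum assigns no life stage and is mostly fetal Lpl (91.6% to 98.7% of a dam's). At 3 mg/kg/d the second run alone gave 1.12 without a call. Fetal Lpl at 10 mg/kg/d PFO5DoA was called with the run as a covariate (0.63), in the first run alone (0.67; the second alone gave 0.62 without a call), by DESeq2 (0.60, adjusted p = 0.0496) and in the summed livers (0.60), and at 30 mg/kg/d with the run as a covariate (0.65). The same sums, set beside maternal liver, were called at 3 mg/kg/d (0.82) and 10 mg/kg/d PFO5DoA, at 62.5 mg/kg/d PFO4DA (0.57) and for its slope (0.11), and had the other sign at 1 mg/kg/d PFO5DoA and at 1 (-0.33), 3 (0.045) and 30 mg/kg/d PFO4DA (0.29). Without the filter on low counts, the maternal minus fetal change under PFO5DoA was called at 1 mg/kg/d (-1.06) and had the other sign at 10 mg/kg/d (-0.021). Single runs gave the other sign for values that were not called, namely maternal 1 mg/kg/d PFO5DoA (0.0029), fetal PFO4DA at 0.3 (0.080), 3 (-0.11) and 10 mg/kg/d (-0.14), and the same-dam correlation (-0.037, and -0.17 in PFO4DA alone). The single-run fits were chosen after seeing the data. The cause of these changes was not tested.

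The replicate numbers of the titles were not taken to pair the dams, since dosed and control livers come from different dams. Same-numbered livers of the top dose and the controls had correlations of -0.26 to 0.43. The control most alike to a top-dose liver bore its number for 1 of 4 maternal and 0 of 3 fetal livers of PFO5DoA. Under PFO4DA this held for 0 of 4 maternal and 1 of 4 fetal livers. With that number as a replicate block, fetal Lpl was 0.72 at 1 mg/kg/d PFO5DoA (adjusted p = 0.0867) and 0.46 at 62.5 mg/kg/d PFO4DA (adjusted p = 0.0971), both calls lost, and 0.56 at 10 mg/kg/d PFO5DoA, called. The signs of maternal 1 mg/kg/d PFO5DoA (0.065), maternal 3 mg/kg/d PFO4DA (0.036) and fetal 3 mg/kg/d PFO4DA (-0.049) turned, none of them called.

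Leaving out each dam in turn, the fetal log2 fold change was 0.73 to 0.97 at 1, 0.72 to 0.96 at 3 and 0.31 to 0.78 at 10 mg/kg/d PFO5DoA, and the difference between the chemicals 1.07 to 1.35 at 1 mg/kg/d (dams chosen for this after seeing the data). Ranges that crossed 0, none of them called, were -0.24 to 0.41, -0.52 to 0.28 and -0.10 to 0.35 in maternal liver at 0.3, 1 and 30 mg/kg/d PFO5DoA, and -0.26 to 0.21, -0.20 to 0.088 and -0.021 to 0.48 at 1, 3 and 10 mg/kg/d PFO4DA. They were -0.04 to 0.16 in fetal liver at 3 mg/kg/d PFO4DA, -0.088 to 0.16 for the fetal difference between chemicals at 30 mg/kg/d, and -0.32 to 0.34 for maternal minus fetal at 30 mg/kg/d PFO5DoA.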

Other observations

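Fetal Lpl at 30 mg/kg/d PFO5DoA was also set against the lower doses, a contrast chosen after the values were seen. The log2 difference was -0.53 against 1 mg/kg/d (SE 0.26, adjusted p = 0.138, edgeR) and -0.52 against 3 mg/kg/d (SE 0.25, unadjusted p = 0.0481, adjusted p = 0.157), with all 3 livers at 30 mg/kg/d below all 4 livers at 3 mg/kg/d. With the dam run as a covariate the difference from 3 mg/kg/d was -0.28 (adjusted p = 0.416). It was not called under either setting.

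The fetal library of the control dam left out (dam 2279) held 9 Lpl counts of 45504, and its maternal library held 200 of 10318254. Those are 198 and 19.4 CPM of the library total.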
